A study of Danio rerio with 2 samples.

Results

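The mRNA splicing factor genes are described here in single blood stem and progenitor cells of the zebrafish tail. They were chosen by name alone, as the genes of both count tables whose zebrafish gene name begins with sf3a or sf3b, snrp, srsf, hnrnp, u2af, lsm or prpf and goes on as members of those families do. This gave 73 of the 16217 genes present in both tables, in 8 subfamilies. Gene names are spelled as the name table has them, some of the zebrafish genes in capitals. The cells came from dissected caudal hematopoietic tissue (CHT), the niche in the tail where embryonic blood stem cells settle, of wild-type animals labelled 5 days post fertilization, with a sort day of 6. Hematopoietic stem and progenitor cells (HSPCs) were sorted into 2 plates of 384 wells, named plates 20 and 21. CEL-seq2, a method that tags each mRNA molecule at its 3′ end, was used to count their transcripts. The layouts call each well double (D), single (S) or undefined (X) without naming the markers, and no well carried another genotype or a treatment. Whether the plates hold cells of different animals is not stated. Each p-value below is set against how far folds differed between the plates, which may be no more than technical. The fits share that spread across genes, so a small p-value does not measure the spread of its own gene alone.

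Splicing removes introns from the first copy of a gene. The spliceosome that does it is built from small nuclear RNAs, each held in a ring of Sm or Sm-like (LSM) proteins, with particle-specific proteins such as the SF3A and SF3B complexes of the U2 particle and the PRPF proteins of the U4/U6.U5 tri-snRNP. U2AF marks the 3′ splice site. SR proteins (srsf genes) bind exons and promote their inclusion, while hnRNP proteins coat nuclear RNA and often oppose it, and several of both kinds also act on mRNA export, stability or translation. In blood, mutations of SF3B1, SRSF2 and U2AF1 are known from human myelodysplasia. The name rule leaves out genes called snrnp, such as those of the U5 helicase and the U1 70K protein, which were counted in a separate list of other core spliceosome genes, and it takes in LSM1, LSM12 and lsm14aa, which belong to cytoplasmic mRNA bodies or decay rather than to splicing.

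A well counted as a cell from 500 transcripts on, which left 189 of 222 double and 111 of 153 single wells on plate 20, and 186 of 240 double and 89 of 132 single wells on plate 21. Median depth was 7170 and 9395 transcripts per double cell and 8257 and 8634 per single cell on plates 20 and 21. The cell type of the label was checked with 6 HSPC markers (MYB, TAL1, LMO2, GFI1B, cd34, gata2b), which together held 1003 and 1162 transcripts per 1000000 (CPM) in double cells, against 1101 and 1084 CPM in single cells. Markers of other cells were present too. In double cells the neutrophil markers npsn, lyz, mmp13a, MMP9 and srgn held 4819 and 5184 CPM, against 2476 and 1196 CPM in single cells. Muscle markers held 7467 and 267 CPM in double and 1483 and 2816 CPM in single cells of plates 20 and 21. The largest well, a double well of plate 20, held 249815 transcripts, 4.72% of them from muscle markers. Double cells of plate 20 held 1827600 transcripts in all, so most of their muscle value came from that well. Epidermis markers held 573 and 1038 CPM against 2888 and 1546 CPM, and stroma markers 395 and 408 CPM against 2682 and 790 CPM. Erythroid markers other than globins held 3835 and 3798 CPM in double and 5775 and 5860 CPM in single cells. The layout of plate 21 gives no well numbers and was read along rows as on plate 20, so its values by sort class rest on that reading. The deposited values are molecular identifiers corrected for repeated draws, and since each molecule gives 1 tag at its 3′ end, levels are not divided by transcript length.

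The 73 splicing factor genes together held 0.802% and 0.895% of all transcripts of double cells and 0.881% and 0.784% of single cells on plates 20 and 21. These shares rest on 14666 and 18796 splicing factor transcripts counted in double cells, against 8890 and 7347 in single cells. The 2 classes overlapped across plates. The largest well, the double well of plate 20 with 249815 transcripts, had splicing factor genes at 0.230% of those outside globin genes. Without it the share of double cells on plate 20 was 0.894%, above both values of single cells. The largest part of the family sum was hnRNP genes, with 39.6% over 22 genes, followed by SR genes with 21.9% over 12 genes. The 6 Sm ring genes held 10.7%, the 10 LSM genes 7.68%, the 9 PRPF genes 6.97%, the 7 SF3A and SF3B genes 6.93%, the 3 U2AF genes 3.43% and the 4 genes particular to the U1 or U2 particle 2.86%.

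Levels were uneven within the family, and 12 of the 73 genes held 44.6% of the family sum. The highest was hnrnpa0l, an hnRNP A0 gene, whose human relative binds AU-rich mRNA. It stood at 898 and 928 CPM in double cells of plates 20 and 21, and at 905 and 772 CPM in single cells. HNRNPAB, another RNA-binding hnRNP, had 417 and 421 CPM in double and 425 and 359 CPM in single cells. SNRPB, the Sm protein B of the ring common to the spliceosomal particles, had 363 and 439 CPM in double and 386 and 361 CPM in single cells. In each of these genes the lowest of the 4 sums was that of single cells on plate 21, and the 2 classes overlapped.

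The next highest were mostly SR proteins and A-type hnRNPs. The gene srsf2a, for the exon-binding SR protein SRSF2, had 323 and 390 CPM in double and 408 and 337 CPM in single cells. Mean levels over the 4 sums were 278 CPM for hnrnpa0b, 253 CPM for SRSF1 (ENSDARG00000057691), 240 CPM for srsf7a, 226 CPM for hnrnpa1a, whose product opposes SRSF1 at many exons, and 216 CPM for srsf5a. HNRNPK (ENSDARG00000018914), for a protein that binds C-rich RNA, averaged 176 CPM, SNRPE of the Sm ring 166 CPM, and PRPF8, the U5 protein at the catalytic centre, 163 CPM. The order of neighbours in this list is not firm, because the 4 sums of srsf7a, hnrnpa1a and srsf5a overlap. At the other end PRPF3, hnrnph3 and hnrnpa3 averaged 1.26, 2.70 and 0.671 CPM, near or below the 1.43 to 3.20 CPM that 3 counts make in the 4 sums, and were too low to be tested. For 7 symbols (SRSF1, SRSF3, SRSF6, HNRNPK, HNRNPU, SNRPD3 and U2AF2) a pair of genes carries the same name, and how reads were split between near-identical copies is not known, so the value of each copy is uncertain.

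**Figure D1:**
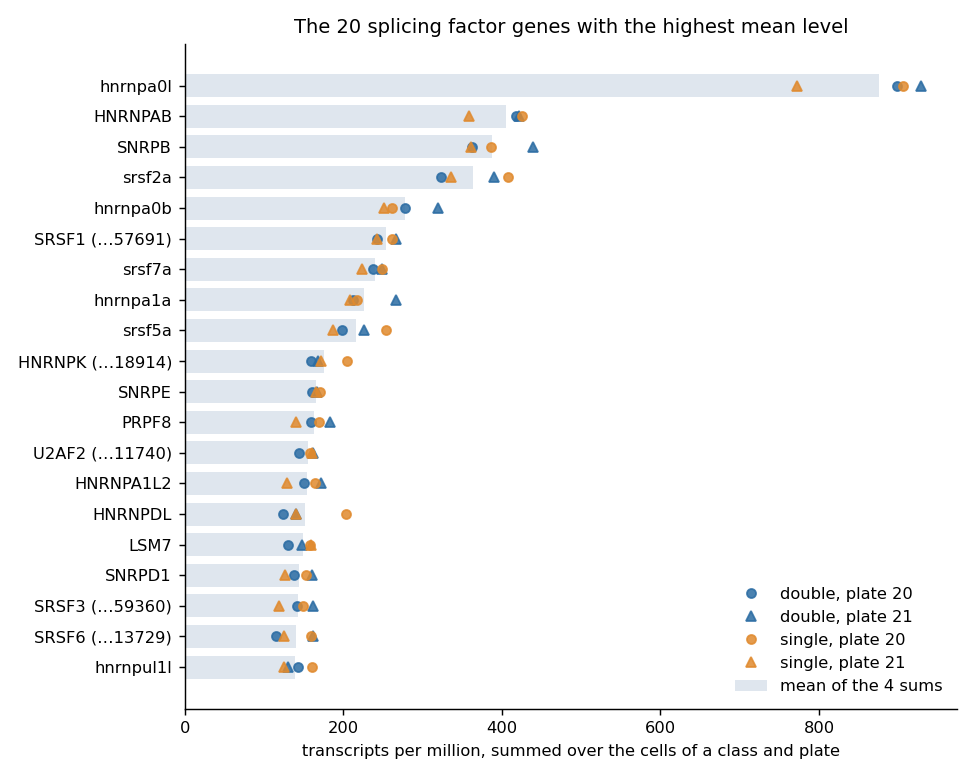
Levels of the 20 splicing factor genes with the highest mean, as CPM of all transcripts (linear axis from 0), with points for the 4 sums of cells by sort class and plate and bars for their mean. The gene hnrnpa0l, at 772 to 928 CPM, stands above HNRNPAB, at 359 to 425 CPM, and points of double and single cells overlap in most rows; the last 5 digits of the gene ID follow a name shared by a pair of genes.

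Between the sort classes no splicing factor gene passed the test. In double against single cells 0 of the 70 tested members were called by edgeR's quasi-likelihood test at an adjusted p under 0.05, where 0% of all 8488 genes were called. DESeq2 also called 0 members, against 0.33% of all genes, and 0 members had an unadjusted p under 0.05 in edgeR, against 8.54% of all genes. The median log2 fold of the members was −0.00, with 35 above and 35 below 0, and it was −0.06 on plate 20 and 0.06 on plate 21. The median of all genes tested was 0.01. In 37 of 70 members (52.9%) the fold had the same sign on both plates, against 55.8% of all genes.

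The members farthest from the family on both plates were few and none passed. Their CPM are of all transcripts, before the scaling used for the folds. PRPF38A, a protein of the spliceosome before its activation, had 19.2 and 21.9 CPM in double cells of plates 20 and 21, against 25.8 and 33.1 CPM in single cells, a log2 fold of −0.54 ± 0.29 (SE). PRPF18, a factor of the second splicing step, had 19.7 and 12.4 CPM against 24.8 and 20.3 CPM, a log2 fold of −0.52 ± 0.32 (SE). Both are low genes, and in each both values of double cells lay under both values of single cells.

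HNRNPDL, an AU-rich RNA-binding protein related to HNRNPD, had 124 and 140 CPM in double cells, against 204 and 141 CPM in single cells. Its log2 fold was −0.39 ± 0.20 (SE), and after scaling it was −0.66 on plate 20 and −0.10 on plate 21. SRSF1 (ENSDARG00000017843), the lower of the pair of SRSF1 genes, was at −0.42 ± 0.26 (SE). On the other side stood SNRPD3 (ENSDARG00000076283), an Sm ring gene, with 62.4 and 80.5 CPM in double cells, against 59.5 and 43.8 CPM in single cells, and a log2 fold of 0.45 ± 0.23 (SE). HNRNPU (ENSDARG00000004735), a nuclear scaffold protein that binds chromatin-associated RNA, had 97.4 and 117 CPM in double and 78.3 and 82.2 CPM in single cells. Its log2 fold of 0.39 ± 0.16 (SE) had the smallest unadjusted p of the family, 0.0621, with an adjusted p of 0.593 in edgeR. HNRNPK (ENSDARG00000007034) at 0.26 ± 0.22 and SF3A1 of the U2 particle at 0.25 ± 0.19 (SE) complete the list.

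Measured cell by cell, the difference in the family's share between sort classes was smaller than its spread between plates. The median share of all transcripts was 0.774% and 0.840% in double cells of plates 20 and 21, and 0.776% and 0.711% in single cells. The difference of medians, double minus single, was −0.00231 percentage points on plate 20 and 0.128 on plate 21, a mean of 0.0631 ± 0.0925 (SD, n = 2 plates). With 2 plates an exact permutation within plates cannot go below p = 0.5. Among transcripts outside globin genes the medians were 0.822% and 0.867% in double cells against 0.840% and 0.788% in single cells. The classes differed in globin, with a median of 0.948% and 0.869% of transcripts in double and 2.69% and 4.37% in single cells. In cells of at least 5% globin the splicing factor medians were 0.889% and 0.876% in double against 0.834% and 0.796% in single cells. Under 5% globin they were 0.779% and 0.860% against 0.848% and 0.786%. The part of globin in the difference was not tested.

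Individual cells spread more than counting error gives. A median cell held 56.5 splicing factor transcripts on plate 20 and 70 on plate 21. Over the 298 and 274 cells with at least 1 such transcript, counting error at each cell's own depth and the mean share gives a standard deviation of 0.155 and 0.127 percentage points, while that of the share outside globin genes was 0.318 and 0.334 points. Cells ran from 0 to 1.91% on plate 20 and from 0 to 1.83% on plate 21, and 2 cells and 1 cell had no splicing factor transcript at all. Over cells, the share went with the other genes of the machinery. Its Spearman correlation was 0.593 and 0.691 with the share of other core spliceosome genes on plates 20 and 21 (n = 300 and 275 cells), and 0.641 and 0.638 with that of other splicing regulators. It was 0.350 and 0.430 with depth, 0.479 and 0.490 with the HSPC markers, and 0.552 and 0.459 with cell cycle genes. With ribosomal protein genes it was 0.325 and 0.487. With the neutrophil markers it was −0.308 and −0.372, and with macrophage markers −0.334 and −0.234. These shares have a common denominator in each cell and all move with depth, so they are given as a description without a test.

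Along the globin share the family followed a hump on both plates. Globin genes mark erythroid cells, and since a high globin share lowers the share of every other gene, values are given from here on as percent of transcripts outside the 12 globin genes. In cells with under 1% globin the median share of the splicing factor genes was 0.700% on plate 20 and 0.704% on plate 21. It was 0.968% and 0.967% at 1 to 5% globin, 0.871% and 0.845% at 5 to 20%, and 0.657% and 0.641% at 20% or more. The last bin holds only 6 and 5 cells, against 140 and 129 cells under 1%, 79 and 69 cells at 1 to 5% and 75 and 72 cells at 5 to 20%.

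The step up, 1 to 5% minus under 1%, was 0.268 and 0.263 percentage points on plates 20 and 21, a mean of 0.265 ± 0.00385 (SD, n = 2 plates), and from means in place of medians it was 0.165. The step down, at least 20% minus 1 to 5%, was −0.311 and −0.326 points, a mean of −0.319 ± 0.0103 (SD, n = 2 plates). Both steps were far larger than the gap between plates. With 2 plates that gap does not measure the error of each median, and the step down ends in bins of 6 and 5 cells. The steps were singled out after the medians were seen and carry no p-value. In finer bins, also drawn afterwards, the highest medians were those at 2 to 5% globin, 0.990% and 1.01%.

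**Figure D2:**
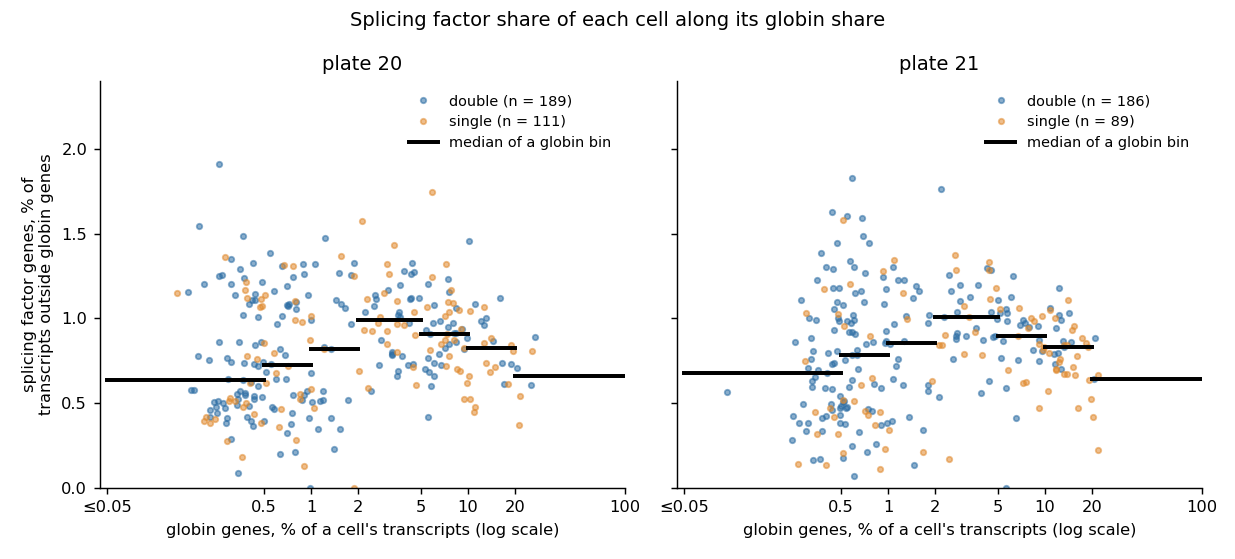
Share of splicing factor genes in each cell, in percent of transcripts outside globin genes, against the globin share of the cell (log axis, values up to 0.05 drawn at the left edge), with double and single cells in colour and the median of each globin bin as a black bar. Medians climb to 0.990% (plate 20) and 1.01% (plate 21) at 2 to 5% globin and are lower on either side. Cells under 2% globin scatter most.

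The hump was present in each sort class. In double cells the medians of the 4 bins, from low to high globin, were 0.724%, 0.981%, 0.909% and 0.708% on plate 20 and 0.771%, 0.956%, 0.907% and 0.761% on plate 21. In single cells they were 0.649%, 0.958%, 0.846% and 0.544% on plate 20 and 0.471%, 0.994%, 0.821% and 0.418% on plate 21, the last bin of each class and plate holding 2 or 3 cells. It was also there in cells of 5000 to 20000 transcripts, with 0.779%, 1.04%, 0.872% and 0.606% on plate 20 and 0.798%, 1.02%, 0.848% and 0.666% on plate 21, a limit on depth added after the data were seen. In that range of depth the last bin holds 3 cells on each plate. Without neutrophil-marker cells, defined below, the median under 1% globin was 0.755% and 0.807%, still under the 0.970% and 0.967% at 1 to 5%.

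Other groups of genes did not all follow the same course. Other core spliceosome genes had median shares of 0.195%, 0.285%, 0.258% and 0.269% over the 4 bins on plate 20 and 0.184%, 0.295%, 0.261% and 0.260% on plate 21. Other splicing regulators were also highest at 1 to 5% globin, with 0.743%, 0.820%, 0.689% and 0.519% on plate 20. On plate 21 they had 0.774%, 0.795%, 0.661% and 0.467%. Unlike the splicing factor genes, they were lower at 5 to 20% than under 1% globin. Without neutrophil-marker cells they had 0.801% under 1% and 0.819% at 1 to 5% on plate 20, and 0.798% and 0.795% on plate 21. Genes of exon junctions and mRNA export were highest at 1 to 5% too, with 0.167%, 0.238%, 0.194% and 0.173% on plate 20. Their values on plate 21 were 0.168%, 0.237%, 0.193% and 0.130%. Cell cycle genes climbed through all bins on plate 20, from 0.273% and 0.678% to 1.14% and 1.40%, and were at 0.233%, 0.829%, 1.18% and 1.35% on plate 21. Erythroid genes other than globins had 0.0711%, 0.430%, 1.06% and 2.42% on plate 20 and 0.0848%, 0.327%, 1.04% and 1.28% on plate 21. HSPC markers were highest in the same bin as the splicing factor genes, with 0.118% and 0.122% at 1 to 5% globin against 0.0412% and 0.0464% under 1%. That sum joins genes of opposite course. Between cells of at least 5% and under 5% globin, edgeR called 3 of 5 tested HSPC markers higher and 2 lower. Among all genes tested there, 16.6% were called higher and 21.5% lower. TAL1 was at 0.41, MYB at −0.63 and cd34 at −3.28 (log2 fold). The part of HSPC markers in the splicing factor share was not tested.

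Cells under 1% globin also differed most among themselves. Their quartiles lay at 0.483% and 1.1% on plate 20, with 0.449% and 1.02% for plate 21, with a standard deviation of 0.362 and 0.389 points. The standard deviation was 0.310 and 0.318 points at 1 to 5% globin and 0.229 and 0.201 points at 5 to 20%. In the finer bins it was largest on plate 20 at 1 to 2% globin, with 0.396 points over 29 cells. Within cells under 5% globin the share went with cell cycle genes (Spearman 0.726 and 0.684, n = 219 and 198 cells) and with HSPC markers (0.548 and 0.596), again as a description without a test.

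All 8 subfamilies had a higher median share at 1 to 5% than under 1% globin on both plates, but not by the same factor. Sm ring genes were at 0.108% and 0.113% at 1 to 5%, against 0.0609% and 0.0492% under 1%, a ratio of 1.77 and 2.29. LSM genes had ratios of 1.88 and 1.92. SR genes had 0.207% and 0.199% against 0.158% and 0.147%, ratios of 1.31 and 1.35. The hnRNP genes, the largest subfamily, had 0.382% and 0.341% against 0.314% and 0.340%, ratios of 1.21 and 1.0, so that on plate 21 they hardly took part. Without neutrophil-marker cells the ratio of hnRNP genes on plate 21 was 0.963, and the other 7 subfamilies stayed above 1 there. Gene by gene, the bin of the highest mean was taken over the 3 lower bins. At 1 to 5% globin it held 28 of the 73 members on plate 20 and 46 on plate 21, 24 of them on both. At 5 to 20% it held 33 and 20 members, 17 of them on both plates, and under 1% 12 and 7, 4 on both. On plate 20 more members thus had their highest mean at 5 to 20% than at 1 to 5% globin. Such counts over all genes are not given.

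**Figure D3:**
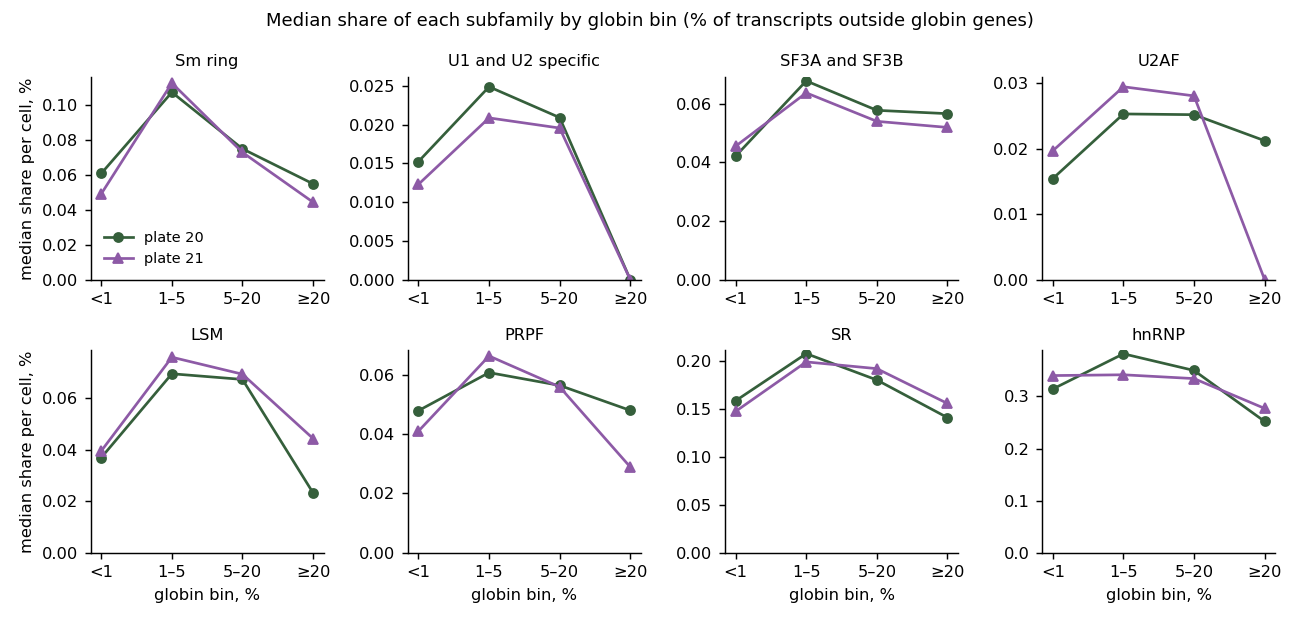
Median share per cell of each of the 8 subfamilies, in percent of transcripts outside globin genes, over 4 bins of globin share, with plates 20 and 21 as separate lines and an axis of its own from 0 for each subfamily. Sm ring and LSM genes show the steepest step from under 1% to 1 to 5% globin, hnRNP genes the flattest, and the last bin rests on 6 and 5 cells.

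For a test of single genes, cells with at least 5% globin (globin-rich, 81 and 77 cells on plates 20 and 21) were summed and set against cells under 5% (globin-low, 219 and 198 cells), without the globin genes. The median share was 0.857% and 0.840% in globin-rich cells and 0.795% and 0.846% in globin-low cells, a difference of 0.0625 and −0.00614 points and a mean of 0.0282 ± 0.0485 (SD, n = 2 plates). The plates differed in sign, and 26 and 23 cells lay between 4% and 6% globin. The median log2 fold of the members was 0.01, against −0.02 over all genes tested.

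Single members departed from the family in both directions. In edgeR's quasi-likelihood test 16 of 70 members (22.9%) were called, where 38.1% of all 8586 genes were called. Of these, 9 were higher in globin-rich cells, against 16.6% of all genes, and 7 lower, against 21.5%. DESeq2 called 4 members, all among the 16, against 10.3% of all genes. The called members were 11 of 20 tested hnRNP genes, 2 of 10 LSM genes, 2 of 6 Sm ring genes and PRPF31 of 8 PRPF genes. None of the 12 SR, 7 SF3A and SF3B, 4 U1 and U2 specific and 3 U2AF genes was called, and differences between subfamilies were not tested.

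Of the members called higher, HNRNPDL had 288 and 191 CPM in globin-rich cells of plates 20 and 21, against 123 and 132 CPM in globin-low cells. Both globin-rich values were above both globin-low ones, with a log2 fold of 0.88 ± 0.13 (SE) and an adjusted p of 4.09e-10 in edgeR's quasi-likelihood test. The fold was 1.23 on plate 20 and 0.53 on plate 21, a gap wider than that SE. The gene hnrnpul1l, a relative of HNRNPU, had 226 and 202 CPM against 136 and 110 CPM, a log2 fold of 0.80 ± 0.14 (SE, adjusted p = 4.53e-08). The gene hnrnpa0a, another A0 gene, had 187 and 172 CPM against 99.2 and 105 CPM, a log2 fold of 0.81 ± 0.15 (SE, adjusted p = 3.45e-07). These 3 genes, with hnrnpa0l below, were the 4 that DESeq2 also called. HNRNPK (ENSDARG00000018914) had 265 and 221 CPM against 161 and 163 CPM, a log2 fold of 0.58 ± 0.13 (SE, adjusted p = 3.20e-05).

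The other members called higher were lower in level. HNRNPD, which steers the decay of AU-rich mRNA, was at 0.70 ± 0.24 (log2 fold ± SE, adjusted p = 0.00981 in edgeR). The gene hnrnph1, for a protein that binds runs of G, had 29.5 and 20.8 CPM in globin-rich against 11 and 11.2 CPM in globin-low cells, the largest fold of the family at 1.15 ± 0.40 (log2, SE). In the bins its mean over cells was 215 CPM on plate 20 at 20% globin or more, from 6 cells, against 28.9 on plate 21, so its value there is uneven. LSM8 and LSM1 each close a ring with 6 shared LSM proteins, LSM8 the nuclear ring on U6 RNA and LSM1 the cytoplasmic ring of mRNA decay. LSM8 had 86.8 and 94 CPM against 46.7 and 67.5 CPM, a log2 fold of 0.66 ± 0.19 (SE). LSM1 had 31.1 and 30.5 CPM against 16.7 and 15.2 CPM, a log2 fold of 0.95 ± 0.34 (SE). PRPF31, which holds U4/U6 to U5 in the tri-snRNP, had 42.6 and 31.8 CPM against 21.5 and 22 CPM, with a log2 fold of 0.75 ± 0.30 (SE) and an adjusted p of 0.0366 in edgeR. In all 5 of these genes both plates gave a fold above 0.

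Of the members called lower, hnrnpa0l had 725 and 722 CPM in globin-rich cells, against 1007 and 1018 CPM in globin-low cells. The plates were close to each other and the groups apart, with a log2 fold of −0.49 ± 0.08 (SE) and an adjusted p of 4.94e-08 in edgeR. The A0 genes thus parted, since hnrnpa0b, with 211 and 259 CPM against 307 and 341 CPM, was also lower (−0.46 ± 0.11, log2 fold ± SE) while hnrnpa0a was higher. HNRNPAB, with 377 and 344 CPM against 459 and 459 CPM, was lower by a log2 fold of −0.35 ± 0.10 (SE). HNRNPU (ENSDARG00000004735) was at −0.65 ± 0.18 and hnrnpr, which is close to the mRNA transport factor SYNCRIP, at −0.53 ± 0.18 (log2 fold ± SE). From the Sm ring, SNRPD1 had 108 and 128 CPM against 162 and 172 CPM, a log2 fold of −0.49 ± 0.15 (SE). SNRPD3 (ENSDARG00000076283) had 39.3 and 56.2 CPM against 71.5 and 80.2 CPM, a log2 fold of −0.65 ± 0.21 (SE, adjusted p = 0.00804 in edgeR). The other 4 Sm ring genes did not pass. SNRPB was at −0.12 ± 0.10 (log2 fold ± SE), and SNRPE, at −0.01, was at 0.20 on plate 20 and −0.21 on plate 21.

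**Figure D4:**
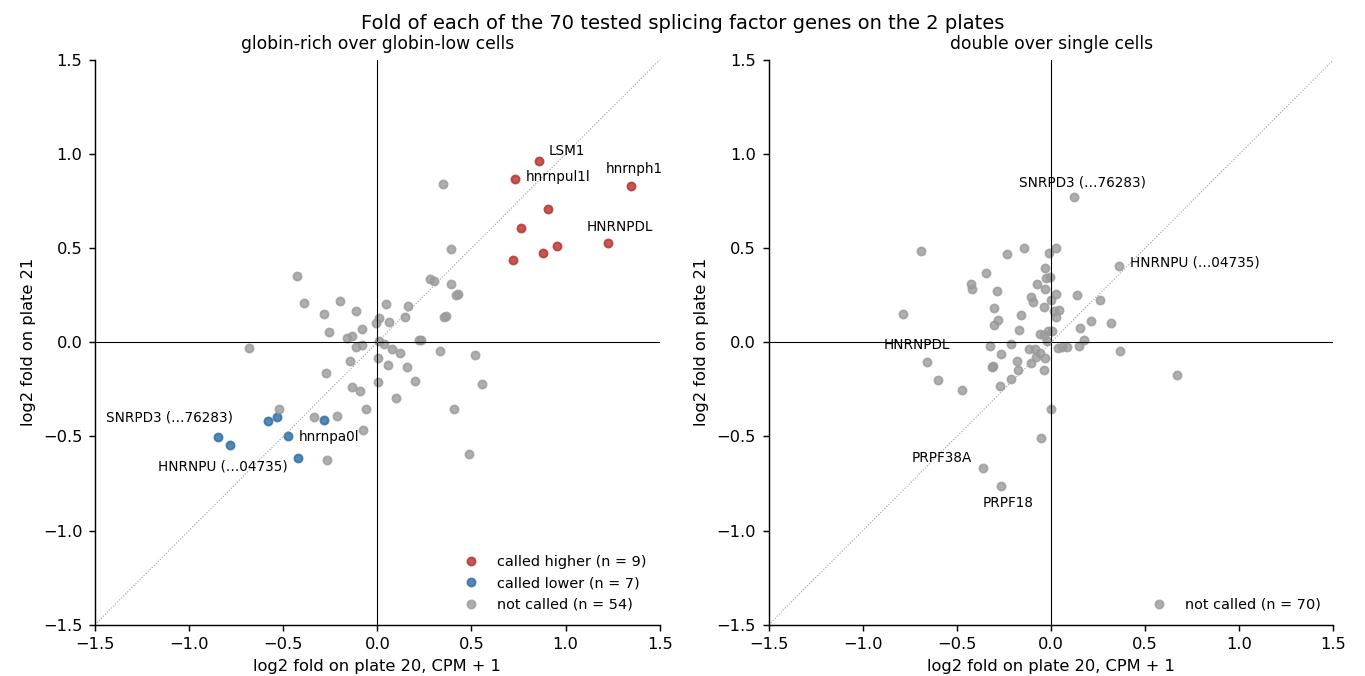
Log2 folds of the 70 tested splicing factor genes on plate 20 (horizontal) and plate 21 (vertical), from normalized CPM with 1 added, for globin-rich over globin-low cells (left) and double over single cells (right), with called genes in colour. On the left the 9 genes called higher and the 7 called lower lie off 0 on both plates, and on the right none of the 70 genes was called.

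The fold between globin-rich and globin-low cells was not shown to differ between the sort classes. A test of that difference over 8 sums called 0 of 5903 genes in edgeR, and 3 of the 70 members had an unadjusted p under 0.05, against 6% of all genes. The smallest adjusted p of a member was 0.819. The count of called members moved with the cells and depth used. In double cells alone 6 members were called, against 22.2% of 7269 genes, and in single cells alone 5, against 23.1% of 4660 genes. After each cell was thinned to 500 transcripts 2 were called, and 29.8% of the 806 genes that could then be tested. Markers of other cells moved with the globin split. The 5 neutrophil markers held 374 and 377 CPM outside globin in globin-rich cells and 5130 and 5588 in globin-low cells, and the 8 epidermis markers held 202 and 189 against 1775 and 1654. Their part in these folds was not tested.

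The rest of the splicing machinery had called genes in both directions in the same comparison. Of all genes tested there, 16.6% were called higher and 21.5% lower. Of 56 tested other core spliceosome genes, 7 were called higher and 4 lower in globin-rich cells in edgeR, with a median log2 fold of 0.17. Of the called genes with the smallest p, CTNNBL1 was at 0.71 ± 0.20, sart1, whose human relative joins the tri-snRNP, at 0.79 ± 0.23 and puf60a at −0.70 ± 0.20 (log2 fold ± SE). Of 43 other splicing regulators, 3 were called higher and 16 lower, among them CELF2 at −2.04 ± 0.20 and MBNL1 at 0.61 ± 0.10 (log2 fold ± SE). Of 13 genes of snRNP assembly, 1 was called higher and 3 lower, among them PRMT5, the methyltransferase that modifies Sm proteins, at −1.68 ± 0.25 (log2 fold ± SE). Against these, 20 of 26 cell cycle genes and 61 of 68 ribosomal protein genes were called higher and none lower.

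Splicing factor shares were also low in cells rich in neutrophil transcripts. Cells under 5% globin with at least 1% of their transcripts from the neutrophil markers are called neutrophil-marker cells, which is a range of a marker share rather than a sorted type. There were 28 on plate 20 and 23 on plate 21, with 22 and 18 of them double and 6 and 5 single, and 7 and 2 cells lay between 0.5% and 2%. Their median share of splicing factor genes was 0.526% and 0.505% on plates 20 and 21, against 0.856% and 0.895% in the other globin-low cells. The difference was −0.330 and −0.390 percentage points, a mean of −0.360 ± 0.0422 (SD, n = 2 plates). After each cell was thinned to 500 transcripts it was −0.160 points, from few splicing factor transcripts a cell. Among cells of 5000 to 20000 transcripts the medians were 0.527% and 0.513% against 0.984% and 0.930%. Median depth differed as well, with 5167 and 6710 transcripts per neutrophil-marker cell and 7844 and 8935 per other globin-low cell.

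All subfamilies had a lower median share in neutrophil-marker cells, by very different amounts. Sm ring genes were at 0.0291% and 0.0297% in neutrophil-marker cells, against 0.0849% and 0.0932% in the other globin-low cells. SF3A and SF3B genes were at 0.0283% and 0.0195% against 0.0597% and 0.0569%. SR genes were at 0.104% and 0.107% against 0.183% and 0.184%. The hnRNP genes were at 0.255% and 0.253% against 0.354% and 0.350%, the mildest of these 4.

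A fit of single genes, added after the shares were seen, called 29 of 70 members (41.4%) by edgeR's quasi-likelihood test, where 38% of all 7810 genes were called. Of these, 28 were lower in neutrophil-marker cells, against 20.3% of all genes, and 1 was higher, against 17.7%. The median log2 fold was −0.92 over the members and −0.33 over all genes, and with DESeq2 size factors and model it was −0.98 and −0.43. On both plates 60 of the 70 members were lower and 6 higher. The fold had the same sign on both plates in 94.3% of members and 79.4% of all genes, the latter not split by direction. DESeq2 called only 3 members, SNRPB, SNRPE and SRSF1 (ENSDARG00000057691), where 17% of all genes were called. Counts were small, since the neutrophil-marker sums held 1018 and 1000 splicing factor transcripts, and 1 transcript there makes 6.08 and 5.86 CPM.

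The clearest group in edgeR was the Sm ring, all 6 tested genes of which were called lower. DESeq2 called only SNRPB and SNRPE of them. SNRPB had 131 and 108 CPM in neutrophil-marker cells of plates 20 and 21, from 21 and 18 transcripts, against 423 and 492 CPM in the other globin-low cells. That is a log2 fold of −1.93 ± 0.25 (SE) with an adjusted p of 4.38e-11 in edgeR's quasi-likelihood test. SNRPE had 56.2 and 60.1 CPM, from 9 and 10 transcripts, against 177 and 199 CPM. Its log2 fold was −1.69 ± 0.34 (SE, adjusted p = 1.12e-05 in edgeR). SNRPD2 had 25 and 42.1 CPM, from only 4 and 7 transcripts, against 102 and 114 CPM. Its log2 fold was −1.68 ± 0.44 (SE). In each of these genes both neutrophil-marker values lay under both others, and the 6 Sm ring folds ran from −1.93 to −1.21.

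Other parts of the spliceosome were lower in part. SRSF1 (ENSDARG00000057691) had 144 and 108 CPM against 273 and 290 CPM, a log2 fold of −1.16 ± 0.27 (SE, adjusted p = 0.000138 in edgeR), and 8 of the 12 SR genes were called lower. SRSF6 (ENSDARG00000013729), another exon-binding SR protein, was at −1.29 ± 0.33 (log2 fold ± SE). SF3B2 of the U2 particle had 31.2 and 18 CPM against 93.7 and 109 CPM, from 5 and 3 transcripts, a log2 fold of −2.04 ± 0.48 (SE). It was 1 of 4 called among the 7 SF3A and SF3B genes. Of PRPF genes 2 of 8 were called lower. Of U2AF genes 1 of 3, of LSM genes 3 of 10 and of U1 and U2 specific genes 1 of 4 were called lower. Over all genes tested 20.3% were called lower, and counts this small do not set these last subfamilies apart from that share. Of the subfamilies in this paragraph DESeq2 called only SRSF1 (ENSDARG00000057691).

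Of the hnRNP genes 3 of 20 were called lower and 1 higher, against 20.3% and 17.7% of all genes, with a median log2 fold of −0.48. The gene hnrnpul1 had 37.5 and 12 CPM against 98.9 and 104 CPM, from 6 and 2 transcripts, a log2 fold of −2.04 ± 0.48 (SE). HNRNPU (ENSDARG00000004735) was the member called higher, with 212 and 204 CPM in neutrophil-marker cells against 96.9 and 120 CPM in other globin-low cells, from 34 and 34 transcripts. Its log2 fold was 0.95 ± 0.27 (SE) with an adjusted p of 0.00257 in edgeR. The second HNRNPU gene (ENSDARG00000015206) was at 0.90 ± 0.41 and HNRNPAB at 0.42 ± 0.19 (log2 fold ± SE), and neither passed. The highest member of the family, hnrnpa0l, was at −0.18 and hnrnpa0b at −0.03, and neither passed.

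**Figure D5:**
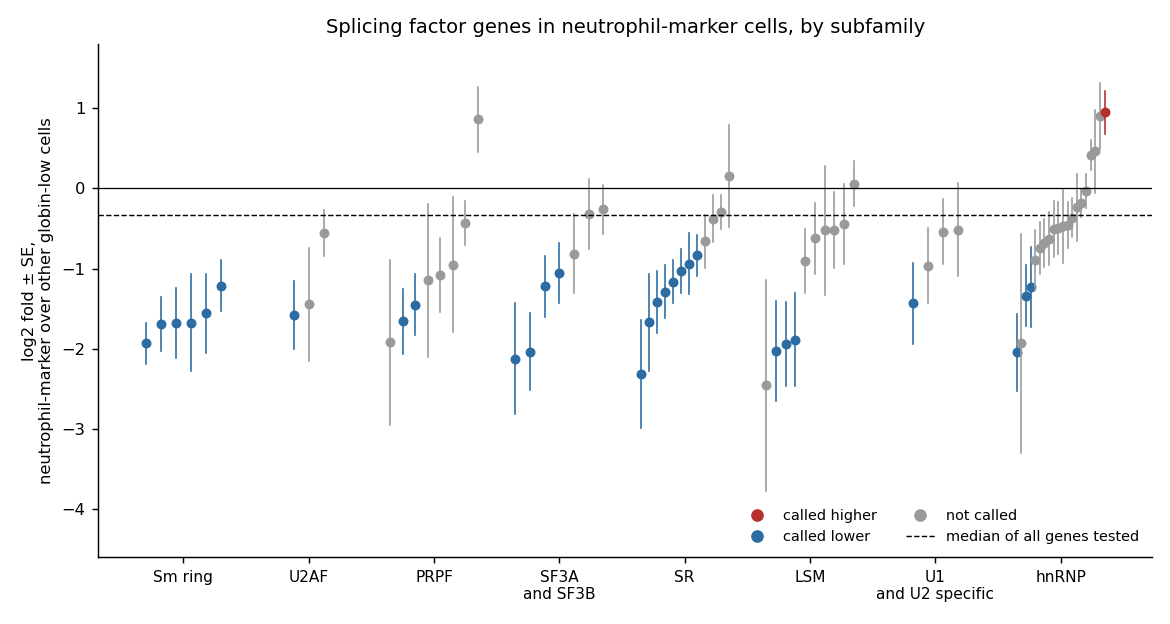
Log2 folds with their SE for the 70 tested splicing factor genes in neutrophil-marker over other globin-low cells, grouped by subfamily, with called genes in colour and the median of all 7810 genes tested, −0.33, as a dashed line. All 6 Sm ring genes lie between −1.93 and −1.21 and were called lower, while hnRNP genes spread from −2.04 to 0.95.

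Of 53 other core spliceosome genes, 14 were called lower and 0 higher in edgeR in the same cells, against 20.3% and 17.7% of all genes, with a median log2 fold of −0.91. Of 41 other splicing regulators 16 were called lower and 5 higher, CELF2 being at 1.71 ± 0.23 and MBNL1 at 0.93 ± 0.19 (log2 fold ± SE). Cell cycle genes had a median of −1.25 with 15 of 24 called lower, and 66 of 67 ribosomal protein genes were called lower with a median of −0.79. Other markers differed between these cells. Macrophage markers held 855 and 572 CPM in neutrophil-marker cells and 316 and 123 CPM in the other globin-low cells, nearly all of the first from ctss2.1 (805 and 493 normalized CPM against 51.6 and 35.5). Of the 11 macrophage markers 6 and 8 were at 0 in neutrophil-marker cells, both MPEG1 genes among them, and of the 4 that could be tested 1 was called higher and 2 lower in edgeR, with a median log2 fold of −1.47. HSPC markers held 255 and 216 against 1107 and 1258. Muscle markers held 1115 and 198 against 7120 and 1495, most of the 7120 from the largest well of plate 20. The part of all these markers in the splicing factor folds was not tested. Fewer splicing transcripts per cell cannot be told apart from more transcripts of other genes, since the values are shares.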

How the data were processed

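Single HSPCs of 2 plates were measured by CEL-seq2. The authors deposited 1 table of expected counts a plate, genes by wells, and a layout with the sort class of each well. From the values, all values above 0 match a whole number of identifiers, corrected for repeated draws from 4096, within 0.01. Per the submitters' processing notes BWA and the genome build Zv9 were used, without versions or filters stated and with no counting tool named. Of 19955 gene IDs, 15742 (78.9%), with 81.5% of transcripts, matched a name in the tables given. Upper-case names are printed as those tables have them, and zebrafish names otherwise.

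Expected counts were summed by plate and cell group, which gave 4 sums a comparison, and rounded to whole numbers. They were tested in R 4.3.3 with edgeR 4.0.16, using TMM scaling, filterByExpr, the quasi-likelihood F test with plate as a block (1 residual degree of freedom), and Benjamini-Hochberg adjustment over all genes tested at 0.05. The SE of an edgeR fold was taken as the size of the fold divided by the square root of its F statistic. Like the p-value, it rests on a spread shared across genes. DESeq2 1.42.0 was an alternative. It gave a larger SE for the members it called, such as 0.28 against 0.13 for HNRNPDL and 0.14 against 0.08 for hnrnpa0l between globin classes. CPM beside a fold is TMM-normalized, and plate folds add 1 CPM. Between sort classes the CPM printed are of all transcripts without that scaling, while the folds use it. Shares per cell, medians and figures were made in Python 3.11.15 with numpy 2.4.6, pandas 2.3.3, scipy 1.17.1 and matplotlib 3.10.9. Counting errors cover sampling of transcripts only. Doublets were not called, and the names double and single are used as the layouts give them.

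On simulated counts the test recovered 6.19% of 2-fold and 62.9% of 4-fold changes between sort classes (8098 genes), and 61.2% and 94.0% between globin classes (8269 genes), with 3 and 8 false calls. Every gene was simulated with the same dispersion (0.0787 and 0.00392) and with equal means on both plates. The simulation therefore cannot show how many false calls arise where genes or plates differ in spread. The fit of neutrophil-marker cells was not simulated.

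The members and lists were chosen with earlier results of these data known. Genes were named by rule: the 12 highest members, the members departing most from the family on the same side of its median on both plates (6 a direction between globin classes, 4 between sort classes), and up to 8 called members a direction. Of the genes so named, 1 is not reported here. The 21 undefined wells, spike-ins and the barcode list entered no comparison. Alternatives were other tools, scaling, filters, cell minimums, depth, limits, layout reading and left-out wells or plates. Sets chosen after the values were seen were the gene-level fit of neutrophil-marker cells, the limit to 5000 to 20000 transcripts, the interaction, the finer bins, the bin differences, and leaving out neutrophil-marker cells.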

Additional observations from a re-analysis of the deposited data

Results flagged for a closer look

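Wells called undefined in the layouts entered no comparison. Among those with at least 500 transcripts, 7 of 9 wells on plate 20 and 9 of 12 on plate 21, the median share of the splicing factor genes was 0.713% and 0.703% of transcripts outside globin genes. The gene hnrnpc, whose name follows the same rule, is listed for plate 21 only, with 6 transcripts over all its wells, and was not counted among the 73 members.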

How the results depend on the processing

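Of the main counts, that of called members between sort classes was 0 under all alternatives run. Between globin classes the count was 16, where 38.1% of all genes were called. It was 4 with DESeq2 (10.3% of all genes) and 2 after thinning to 500 transcripts, where only 806 genes could be tested (29.8% called). It was 6 in double cells alone (22.2% of all genes) and 5 in single cells alone (23.1%). At 20% or more against under 1% globin it was 7. In neutrophil-marker cells it was 29, where 38% of all genes were called, 3 with DESeq2 (17% of all genes) and 1 after thinning. Without the replicate block for plate the counts were 13, 0 and 32 for globin classes, sort classes and neutrophil-marker cells, within 1.5 times of the main counts. Shares over all genes are not given for the counts of 7, 1, 13 and 32, so these describe the setting and not the members. Leaving out a plate left no residual degrees of freedom, so counts have no test there.

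The share difference of globin-rich minus globin-low cells, 0.0282 percentage points, changed sign in part. It was 0.157 after thinning, −0.0447 in cells of 5000 to 20000 transcripts, −0.0577 of all transcripts, 0.168 with a globin limit of 2%, −0.0647 with 10% and −0.0266 without neutrophil-marker cells. That of neutrophil-marker minus other globin-low cells, −0.360, was −0.270 from means, −0.160 after thinning, −0.437 at 5000 to 20000 transcripts and −0.309 with a neutrophil limit of 5%. The step from under 1% to 1 to 5% globin, 0.265, was 0.165 from means, 0.207 and 0.297 with cell minimums of 250 and 1000, 0.228 after thinning, 0.240 without wells over 5% muscle or epidermis, 0.257 with the plate 21 layout read down columns, 0.242 at 5000 to 20000 transcripts, 0.241 of all transcripts and 0.187 without neutrophil-marker cells. The step from 1 to 5% to 20% or more, −0.319, was −0.243 and −0.358 with those minimums, −0.265 after thinning and −0.301 by columns. It was −0.394 at 5000 to 20000 transcripts, where the last bin held 3 cells on each plate, and −0.432 of all transcripts. Without 1 plate the values ran from −0.00231 to 0.128 between sort classes, from −0.00614 to 0.0625 between globin classes, from −0.390 to −0.330 for neutrophil-marker cells, from 0.263 to 0.268 for the step up and from −0.326 to −0.311 for the step down.

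Of single genes, PRPF18 had a log2 fold of 0.00865 with the layout of plate 21 read down columns, against −0.52. At 20% or more against under 1% globin, HNRNPK (ENSDARG00000018914) was at −0.37, hnrnpul1l at −0.14 and LSM8 at −0.62. The cause was not tested. Sums of few cells limit what could be seen, and a value of few transcripts can move by its counting error alone.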
